A study of Homo sapiens with 7 samples.

Results

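The 7 culture media of H1 cells were divided into a set of 3 and a set of 4, and the genes that lay apart between these sets are described here. H1 is an established human embryonic stem cell line. The first set, called LPA-like, holds the media labelled AlbuMAX, LPA and LPA + Albumin, and the second, called quiet, holds E8, Albumin, CDL and hCDL. Together they are all 7 arrays of the study. The labels give the media, but the sets were chosen by measured values, the number of genes past a fold limit against E8: the first 3 media had differed from E8 by more genes than Albumin, CDL and hCDL had. The differences between the sets are therefore given as a description with no test.

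Every culture was kept in E8, a defined medium without albumin, on matrigel, and had been passaged with 5 μM of the ROCK inhibitor Y27632, which was withdrawn after 24 hours. The media were E8 alone, E8 with 1.6% AlbuMAX (a lipid-rich bovine albumin), E8 with 1% albumin, E8 with 1% CDL (a chemically defined lipid concentrate), E8 with hCDL (a lipid mixture made by the submitters), E8 with 1 μM LPA (lysophosphatidic acid, 18:1), and E8 with both 1 μM LPA and 1% albumin. For hCDL the treatment label reads 0.1x and the sample title 0.01%. RNA was taken after 2 days, and each medium has 1 array and no replicate. The source of the albumin in the Albumin media is not given in the labels, and whether AlbuMAX carries LPA is not stated there. Because a gene's signal comes from a whole culture, fewer cells of a type and less RNA per cell cannot be told apart.

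Lysophosphatidic acid is a phospholipid that cells sense through G protein-coupled receptors. Through G12/13 proteins it activates the small GTPase RhoA and its kinase ROCK, which drive the assembly of actin filaments. Actin assembly releases the cofactors MRTF-A and MRTF-B to bind the transcription factor SRF, whose targets include actins and actin-binding proteins, and the same pathway lets YAP enter the nucleus and act with TEAD factors. LPA receptors also signal through Gi to the ERK kinases. Albumin carries lipids in serum, fatty acids and lysophospholipids among them.

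Values are log2 normalized probe intensities over 7982 named genes, and a difference of 1 is a doubling. Each gene is read from 1 probe, so a level is compared between media and never between genes. The share of all 33866 probes above background ran from 34.6% to 37.3% in the quiet media and from 35.1% to 35.6% in the LPA-like media. Between pairs of quiet media 34 to 72 genes were 2-fold apart, and between pairs of LPA-like media 43 to 101 genes were. Between a quiet and an LPA-like medium the count ran from 195, for E8 and LPA, to 407, for CDL and LPA + Albumin. The sets were chosen by counts of this kind against E8, so the larger counts between them give no support to the division.

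All 3 LPA-like arrays lay above all 4 quiet arrays on 1174 genes (14.7% of those measured) and below them on 1337 genes (16.8%), 31.5% of the genes in either direction. Where the set means were also at least 2-fold apart, 184 genes were higher (2.31%) and 21 were lower (0.263%). At 1.5-fold the counts were 401 higher (5.02%) and 169 lower (2.12%). Measured by the gap, from the nearest LPA-like to the nearest quiet array, 183 higher genes (2.29%) and 26 lower genes (0.326%) were at least 1.5-fold apart, and 78 (0.977%) and 1 (0.0125%) at least 2-fold. The larger differences were thus mostly increases, although more genes lay below the quiet range than above it. Of the 184 higher genes, 50 differed by more than 2 and 20 by more than 3 on the log2 scale, whereas none of the 21 lower genes passed 2 and the farthest of them, EBF2, differed by -1.56. On 43 of the 184 higher genes no quiet array was above background, and 108 were above background on all 7 arrays.

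**Figure D1:**
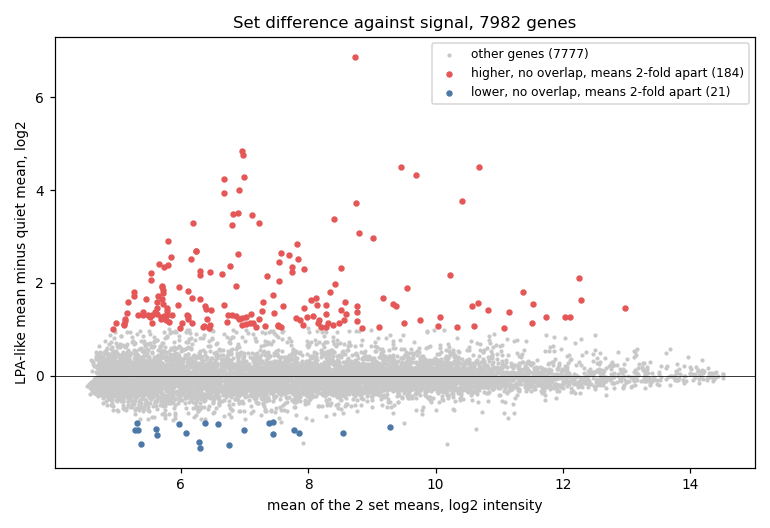
Difference of the LPA-like mean from the quiet mean (log2, vertical axis) against signal (log2 intensity, horizontal axis), 1 point per gene. The 184 higher genes (red) reach 6.87, the 21 lower genes (blue) stop at -1.56, and the other genes are grey.

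One comparison takes its groups from the labels, apart from the choice to set AlbuMAX aside. LPA and LPA + Albumin, the 2 arrays labelled with added LPA, were tested with limma against the 4 quiet arrays, leaving out AlbuMAX. At an adjusted p under 0.05, 735 genes rose (9.21%) and 601 fell (7.53%) with added LPA, and 2380 genes (29.8%) had an unadjusted p under 0.05. Without LPA + Albumin the counts were 308 and 147, and with AlbuMAX, whose label names no LPA, counted among the media without LPA, no gene passed in either direction. The test uses 6 of the arrays from which the sets were drawn and gives no independent support to genes chosen for lying apart. Its p-values measure the spread between media, not between cultures. They are given below for members of functional gene lists, and "rose" and "fell" are kept for genes that passed. Counts for gene lists are to be read against the shares of all genes. Of all genes, 14.7% lay above the quiet range, 16.8% below it, and 2.31% were also 2-fold higher. In the limma test 9.21% rose and 7.53% fell. The median difference between the sets over all genes was -0.03. A gene was measured if above background on at least 1 array, so some members entered only through the LPA-like arrays where they were high.

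Muscle-type actins were among the 6 genes with the widest gaps, with ANXA1, TWIST1 and SFTA1P, which had wider ones. ACTA1, the alpha-actin of skeletal muscle, read 8.66 in E8, 8.65 in Albumin, 8.21 in CDL and 8.22 in hCDL, against 12.96 in AlbuMAX, 12.37 in LPA and 13.46 in LPA + Albumin. The set means were 8.44 ± 0.26 (SD, n = 4 media) and 12.93 ± 0.55 (SD, n = 3 media), a 22.5-fold difference. ACTC1, the cardiac alpha-actin, read 7.39, 7.53, 6.90 and 7.04 in the quiet media in the same order and 11.81, 11.01 and 12.29 in AlbuMAX, LPA and LPA + Albumin. ACTG2, the enteric smooth muscle gamma-actin, read 7.97, 7.61, 7.13 and 7.44 against 11.83, 11.43 and 12.30. On each of these 3 genes the lowest LPA-like array was LPA alone and the highest LPA + Albumin, and even LPA alone stood more than 3 above the highest quiet array. ACTA2, the vascular smooth muscle alpha-actin, differed less, with quiet values from 4.93 to 5.44 and LPA-like values of 8.45, 7.69 and 9.13; 2 of the 4 quiet arrays were above background. These 4 genes are near-identical paralogs, so a probe may also pick up transcripts of the others, which was not tested.

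The cytoplasmic actins moved little. ACTB read 14.01, 14.02, 13.90 and 14.10 in the quiet media and 14.41, 14.34 and 14.32 in AlbuMAX, LPA and LPA + Albumin, a difference of 0.35. ACTG1 overlapped between the sets, with values from 14.32 to 14.51 in the quiet media and from 14.36 to 14.45 in the LPA-like media.

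The promoters of ACTA1, ACTC1, ACTG2 and MYL7 are shown because each carries a CArG box, the letters that SRF binds. Sequences are from RefSeq on GRCh38.p14, written 5′ to 3′ on the strand of the gene, with CArG boxes in capitals: ACTA1 at chr1:229434142-229434231 (minus strand), ACTC1 at chr15:34795609-34795698 (minus strand), ACTG2 at chr2:73892895-73892984 (plus strand) and MYL7, an atrial myosin light chain that was at least 3.65-fold higher, at chr7:44141344-44141433 (minus strand).
ACTA1: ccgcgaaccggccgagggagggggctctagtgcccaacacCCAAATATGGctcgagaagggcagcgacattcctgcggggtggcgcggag
ACTC1: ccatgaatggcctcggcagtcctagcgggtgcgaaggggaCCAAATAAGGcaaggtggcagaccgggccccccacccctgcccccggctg
ACTG2: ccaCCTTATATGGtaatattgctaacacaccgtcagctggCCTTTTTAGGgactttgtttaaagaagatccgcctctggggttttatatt
MYL7: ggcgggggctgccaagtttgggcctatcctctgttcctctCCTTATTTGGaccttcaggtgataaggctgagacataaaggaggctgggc
Within the 250 bases before the start, on both strands, the CArG box was found in 312 of 27305 promoters (1.14%). It was found in 7 of the 24 promoters matched for the SRF and actin list of 26 measured genes (29.2%). The list was drawn up from SRF targets and actin genes, so a high share follows from that choice and not from these data. Those 7 were ACTA1, ACTC1, ACTG2, CNN2, FHL2, TPM4 and ACTG1, whose differences between the sets ran from 4.49 in ACTA1 to -0.02 in ACTG1. A match to these letters is a description and not a binding site. The same count over the 184 higher genes is void, because a promoter was matched for only 77.2% of them.

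Genes for actin-binding and contractile proteins were also higher as a group. Of the 26 measured members of the SRF and actin list, which includes the actins above, 21 lay above the quiet range and none below. Set means were 2-fold apart on 10 members, ACTA1, ACTA2, ACTC1 and ACTG2 among them. The others of these 10 were CNN1, MYL9, CALD1, TPM1, TPM2 and PDLIM7. In the limma test 20 of the 26 rose and none fell. The median difference of the list was 0.75. MYL9, a regulatory light chain of non-muscle and smooth muscle myosin, read 6.63, 6.71, 6.39 and 6.61 in E8, Albumin, CDL and hCDL and 8.93, 8.88 and 9.49 in AlbuMAX, LPA and LPA + Albumin (limma adjusted p = 2.63e-07). CNN1, the smooth muscle calponin, read 5.56, 6.08, 5.16 and 5.58 against 8.06, 7.67 and 8.90. CALD1, the actin and myosin binding caldesmon, and TPM1, a tropomyosin, rose by 1.62 and 1.21 with added LPA (limma adjusted p = 1.65e-06 and 1.7e-06). The other 3 TPM1 probes differed between the sets by 0.59, with overlap, 0.75 and 1.32. Those of TPM2 differed by 0.48, with overlap, and 1.21, and those of PDLIM7 by 0.48, with overlap, and 0.74. Those of CALD1 differed by 1.71 and 1.93 and that of MYL9 by 2.19, without overlap. MYH9, the heavy chain of non-muscle myosin, rose by 0.86 (limma adjusted p = 9.79e-05). Gelsolin went the other way: GSN, which severs actin filaments, read 6.86, 6.57, 6.79 and 6.60 in the quiet media and 5.46, 5.98 and 4.97 in AlbuMAX, LPA and LPA + Albumin.

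**Figure D2:**
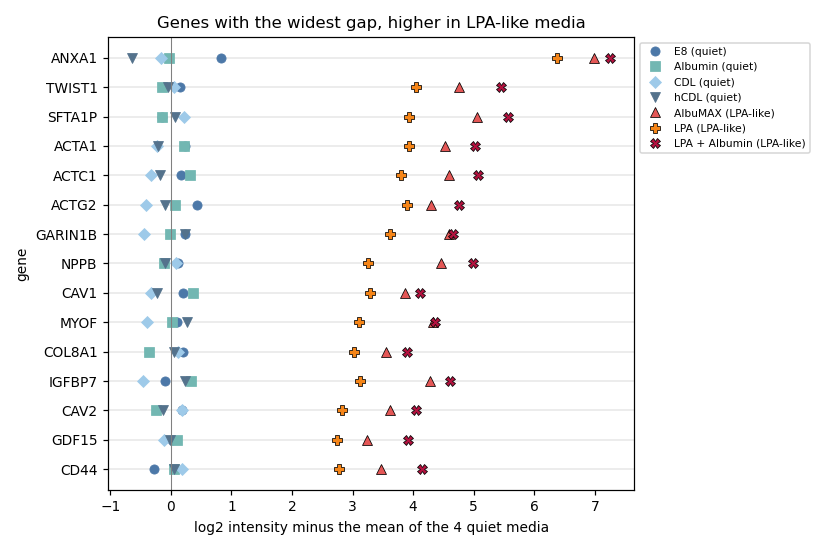
The 15 higher genes with the widest gap between the sets, each array as the log2 intensity minus the mean of the 4 quiet media (horizontal axis; symbols mark the media). The quiet media lie around 0 and every LPA-like medium lies beyond them, with ANXA1 near 7.

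Apart from ACTA2 and CNN1, most listed muscle markers had no named probe or were not above background. MYL7 and NPPB, described elsewhere here, are not on these lists. Of the 9 smooth muscle markers 5 had a named probe and 4 were measured. The summed linear signal of these 4 was 130 to 170 in the quiet media and 462 to 1135 in the LPA-like media. Of these 4, ACTA2 and CNN1 lay above the quiet range, while MYH11, the smooth muscle myosin, and MYOCD, the muscle cofactor of SRF, were above background on no quiet and 1 LPA-like array each. Of 11 skeletal and cardiac markers 10 had a named probe and 2 were measured, at sums of 111 to 152 and 131 to 147. Fibroblast markers summed to 2414 to 3049 in the quiet and 2860 to 2932 in the LPA-like media from 3 of 10 measured, and none of the 7 blood markers was measured. The part of these markers in the other results was not tested.

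Genes associated with YAP and TEAD were higher on 7 of 11 measured members, 5 of them 2-fold, and 7 of the 11 rose in the limma test. Of the 11, 9 were above background on any quiet array. MYOF and ANKRD1 passed the background filter only through the LPA-like arrays. AMOTL1, NT5E and FOXF2 had a named probe but were above background on no array. MYOF, a membrane repair protein, was above background on no quiet array and read 9.05, 7.82 and 9.07 in AlbuMAX, LPA and LPA + Albumin, at least 10.5-fold higher. ANKRD1, a nuclear ankyrin repeat protein often used as a YAP reporter, was at least 3.17-fold higher, with 6.91, 6.13 and 7.71 in the LPA-like media and no quiet array above background. AXL, a receptor tyrosine kinase, read 7.08, 7.20, 7.37 and 7.53 in the quiet media and 9.11, 8.50 and 9.28 in the others (limma adjusted p = 4.92e-05). F3, tissue factor, and FJX1, a Golgi protein, rose by 1.36 and 1.61 (limma adjusted p = 0.00105 and 8.3e-05).

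Part of the immediate early genes was higher after 2 days. Of 14 measured immediate early genes, 7 lay above the quiet range and 7 rose in the limma test. JUN, a subunit of AP-1, read 6.50, 6.68, 6.39 and 6.51 in the quiet media and 8.57, 8.03 and 9.11 in AlbuMAX, LPA and LPA + Albumin (limma adjusted p = 2.88e-05). FOSL1, its partner in AP-1, was above background on all 3 LPA-like arrays and on no quiet array, at least 1.94-fold higher. FOS overlapped between the sets, with 7.26 to 7.69 in the quiet media and 7.09 to 7.52 in the LPA-like media, and MYC overlapped too, at 10.33 to 10.65 and 10.42 to 10.67. Of 17 listed genes downstream of ERK only 6 were measured, and these were mixed. The listed DUSP, SPRY and SPRED feedback genes had no named probe here, so they were not seen. PHLDA1, CCND1 (cyclin D1) and ETV5 lay above the quiet range. ETV1 lay 0.33 below on average and was above background on 1 array, and ETV4 and IL17RD overlapped. PHLDA1 rose by 1.92 and CCND1 by 0.50 in the limma test (adjusted p = 4.6e-06 and 0.000337).

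Annexins, caveolins and S100 proteins, which bind membranes and calcium, were higher as a group. Of 20 measured members 17 lay above the quiet range, 10 of them with means 2-fold apart, and 15 rose in the limma test while none fell. The median difference was 1.01. Of the 20 members, 17 were above background on any quiet array and 20 on any LPA-like array. MYOF is also on this list. ANXA1, a calcium-dependent phospholipid-binding protein, read 6.13 in E8, 5.27 in Albumin, 5.13 in CDL and 4.66 in hCDL, with 2 of these above background, and 12.28 in AlbuMAX, 11.67 in LPA and 12.55 in LPA + Albumin. It had the widest gap of the 7982 genes: 5.54 separated its lowest LPA-like from its highest quiet value. CAV1, the coat protein of caveolae, read 8.74, 8.91, 8.20 and 8.30 against 12.41, 11.82 and 12.65, and its partner CAV2 read 5.34, 4.91, 5.34 and 5.03 against 8.78, 7.99 and 9.20. ANXA2 and its binding partner S100A10 rose by 2.10 and 1.54 with added LPA (limma adjusted p = 1.24e-07 and 1.65e-06). The probe for CAV1 was matched by a second probe, 2.79 higher with no overlap. ANXA2 has near-identical pseudogenes, so its signal is uncertain.

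Matrix and adhesion genes rose on 16 of 19 measured members, none fell, and 6 were at least 2-fold higher. Of the 19 members, 17 were above background on any quiet array and 19 on any LPA-like array. PLAU, the urokinase plasminogen activator, read 7.54, 7.65, 7.05 and 7.22 in the quiet media and 9.49, 9.17 and 10.37 in AlbuMAX, LPA and LPA + Albumin (limma adjusted p = 1.99e-05). PLAT, the tissue plasminogen activator, was 2.26 higher, and LOX, which cross-links collagen, was at least 2.04-fold higher with no quiet array above background. ITGA3, the integrin subunit that pairs with beta-1 to bind laminin, rose by 1.64 with added LPA (limma adjusted p = 9.01e-05). COL8A1, a short-chain collagen, was among the 15 widest gaps: it was above background on no quiet array and read 8.62, 8.09 and 8.98, at least 9.93-fold higher. Its other probes differed by 3.00 and 0.87, both without overlap.

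Of the 7 measured IGF binding proteins 3 were at least 2-fold higher. IGFBP5 read 7.06, 6.89, 6.69 and 6.95 in the quiet media and 10.70, 9.61 and 11.53 in AlbuMAX, LPA and LPA + Albumin, a difference of 3.72. IGFBP7 read 4.81, 5.24, 4.46 and 5.14 against 9.19, 8.03 and 9.51, with 1 quiet array above background. IGFBP4 was lower, at 8.59 to 9.02 against 8.20 to 8.32, and fell in the limma test (adjusted p = 0.005).

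Among mesenchymal genes 4 of 9 measured rose. TWIST1, a transcription factor of mesenchyme, was above background on no quiet array and read 9.37, 8.66 and 10.07 in AlbuMAX, LPA and LPA + Albumin, at least 17.3-fold higher. CD44, a hyaluronan receptor, read 5.11, 5.44, 5.57 and 5.45 against 8.86, 8.16 and 9.54. A second CD44 probe differed by 0.63 and its sets overlapped. CDH2, N-cadherin, read 10.90, 10.81, 10.68 and 10.65 against 12.23, 12.25 and 12.44. CDH1, E-cadherin, was not lower: it read 11.25, 11.40, 11.50 and 11.36 in the quiet media and 11.58, 11.55 and 11.70 in the others. Of 12 measured genes for epithelial junctions and keratins, 5 rose in the limma test and none fell, and none had set means 2-fold apart.

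Of 7 measured genes of the Nodal and TGF-beta list 6 lay above the quiet range, and 6 rose. LEFTY2, a secreted Nodal antagonist, read 7.53, 7.28, 7.36 and 6.88 in the quiet media and 11.32, 9.41 and 10.31 in AlbuMAX, LPA and LPA + Albumin, so it was highest in AlbuMAX, unlike most of the higher genes. LEFTY1 read 9.30, 9.35, 9.80 and 9.27 against 11.06, 10.50 and 10.52. CER1, another secreted antagonist, was above background on 1 quiet array and read 6.45, 6.48 and 7.11. NODAL itself overlapped, at 8.57 to 8.96 in the quiet media and 8.70 to 9.12 in the LPA-like media. GREM1, a secreted BMP antagonist, read 5.46, 4.55, 4.96 and 4.64, with 1 quiet array above background, against 7.49, 6.80 and 8.49.

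Of 23 listed genes that p53 is known to induce, 16 were measured. Of these, 11 lay above the quiet range and none below, and 12 rose in the limma test. SESN2, TP53I3, RRM2B, POLH and CCNG1 overlapped between the sets, with differences of -0.13 in POLH and -0.003 in CCNG1. CDKN1A, the cyclin-dependent kinase inhibitor p21, read 7.77, 7.62, 7.10 and 7.67 in the quiet media and 10.66, 9.92 and 10.92 in AlbuMAX, LPA and LPA + Albumin (limma adjusted p = 1.65e-06). GDF15, a secreted stress cytokine, was above background on no quiet array and read 7.79, 7.29 and 8.45, at least 6.01-fold higher. PHLDA3, which inhibits AKT, and ZMAT3, a zinc finger RNA-binding protein, rose by 1.94 and 1.59 (limma adjusted p = 2.87e-05 and 4.82e-06). BAX, a pro-apoptotic protein, read 8.73, 8.71, 9.16 and 8.68 against 9.45, 9.72 and 9.72.

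Cell cycle genes differed by small amounts. Of 22 measured genes of G2 and mitosis, 10 lay below the quiet range, none of them by 1.5-fold, and 9 fell in the limma test. Over all genes 16.8% lay below and 7.53% fell. TOP2A, the topoisomerase of dividing cells, read 12.11, 12.12, 12.11 and 12.15 in the quiet media and 11.72, 11.74 and 11.49 in AlbuMAX, LPA and LPA + Albumin (limma adjusted p = 0.000483). CCNB1, cyclin B1, fell by 0.34 with added LPA (limma adjusted p = 0.00862). Among 12 genes of G1-S and DNA replication, 1 rose, near the 9.21% of all genes, and none fell. The 1 was TYMS, thymidylate synthase, at 10.43 to 10.54 against 10.81 to 10.99.

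**Figure D3:**
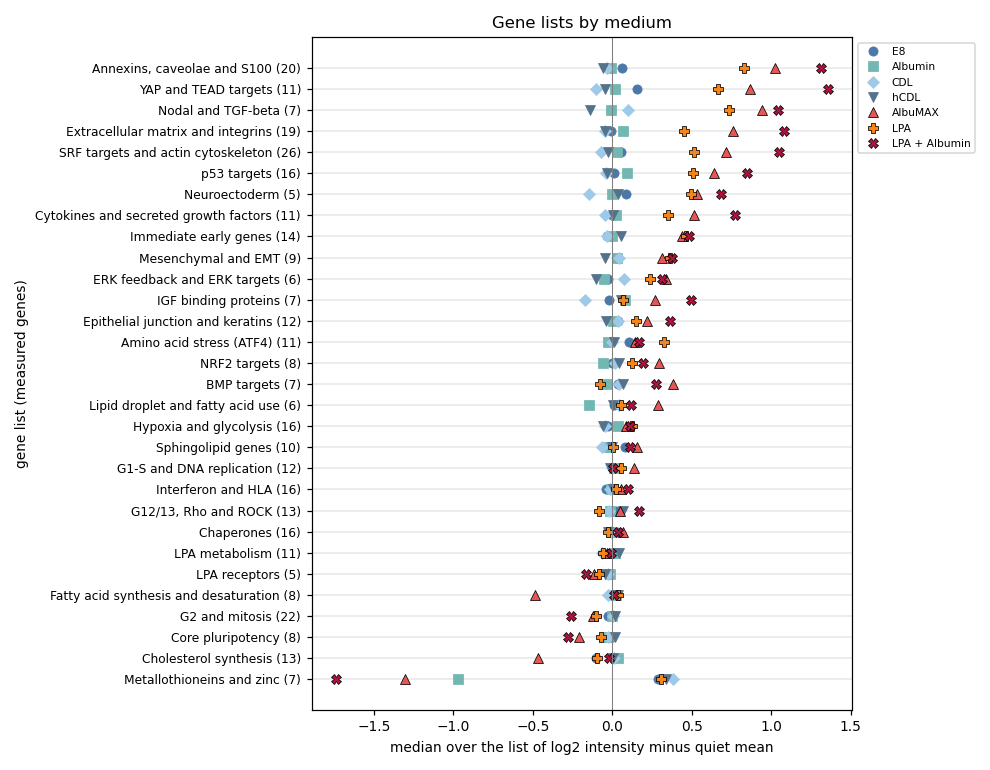
Median over each gene list of the log2 intensity minus the quiet mean (horizontal axis), 1 symbol per medium; lists with at least 5 measured genes, their number in brackets. Lists are ordered by the mean of the LPA-like media, with annexins, caveolae and S100 genes at the top; the LPA-like media separate from the quiet ones on the SRF list, and metallothioneins split AlbuMAX and LPA + Albumin from LPA.

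Other higher genes are outside the groups above. SFTA1P, a long non-coding transcript, was above background on no quiet array and read 9.59, 8.48 and 10.11 in AlbuMAX, LPA and LPA + Albumin, at least 17.6-fold higher. GARIN1B, a Golgi-associated protein known from testis, was at least 14.7-fold higher on the same terms. NPPB, the precursor of B-type natriuretic peptide, which heart muscle makes under load, read 9.02, 7.81 and 9.55 with no quiet array above background, at least 11.6-fold higher. PDGFB, a growth factor for mesenchymal cells, was 2.16 higher on the log2 scale. IL6, a cytokine, was above background on no quiet array and at least 1.49-fold higher. AFP, alpha-fetoprotein, read 6.71, 6.05, 5.80 and 6.45 against 9.17, 8.74 and 8.75. AFP was the 1 of 4 measured endoderm markers that rose; FOXA2 was above background on 1 of 7 arrays, and HHEX overlapped between the sets.

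Lower genes were fewer and their differences smaller. ITLN2, the lectin intelectin 2, had one of the widest gaps, with 8.09, 8.03, 8.15 and 8.08 in the quiet media and 6.92, 6.96 and 6.59 in AlbuMAX, LPA and LPA + Albumin, 2.40-fold lower. JAKMIP2, a microtubule-associated protein of neural tissue, read 8.42, 8.40, 8.54 and 8.51 against 7.07, 7.47 and 7.17. SCARNA8, a small Cajal body RNA, read 7.43, 7.61, 7.65 and 7.34 against 6.03, 6.34 and 5.69. ALDH1A1, which makes retinoic acid, was above background on every quiet array and on no LPA-like array, at least 1.76-fold lower, while its paralog ALDH1A3 read 7.53 to 7.69 against 8.63 to 9.17. H2BC9, a histone H2B gene, was 2.25-fold lower. RTN1, a reticulon of neurons, and MAGEA4, a cancer-testis antigen, were above background on all quiet and no LPA-like arrays, at least 1.96-fold and 1.53-fold lower. SPTSSB, a small subunit of serine palmitoyltransferase, CD1D, which presents lipid antigens, and GAS1, a hedgehog co-receptor, differed by -1.04, -1.15 and -1.01. Second probes, all without overlap, differed by -0.43 for RTN1, -0.62 for SPTSSB, -0.996 for GAS1 and -0.84 for ALDH1A1.

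**Figure D4:**
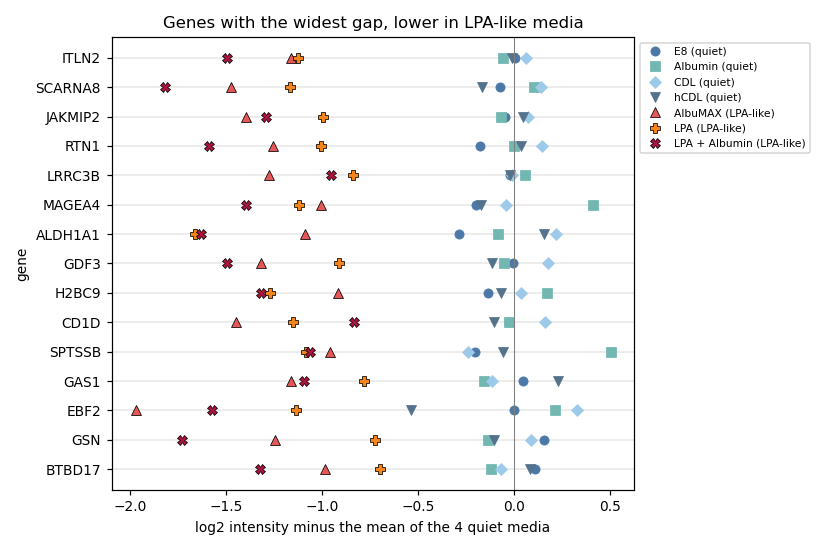
The 15 lower genes with the widest gap, each array as the log2 intensity minus the mean of the 4 quiet media (horizontal axis; symbols mark the media). Every LPA-like value lies below every quiet value, none below -2.

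The 8 measured core pluripotency genes, of 19 listed, were above background in every medium. SOX2 was among those with no named probe here. POU5F1 (OCT4) read 10.61, 10.84, 11.02 and 10.79 in the quiet media and 10.37, 10.82 and 10.29 in AlbuMAX, LPA and LPA + Albumin, so LPA lay within the quiet range. NANOG read 10.31, 10.31, 10.26 and 10.34 against 10.07, 10.23 and 9.98, without overlap, and did not pass the limma test (adjusted p = 0.122). GDF3, a TGF-beta family ligand of pluripotent cells, was the 1 of 8 measured core genes that fell, with 9.16, 9.11, 9.34 and 9.05 against 7.84, 8.25 and 7.67 (limma adjusted p = 4.92e-05). Of 5 measured neuroectoderm markers 3 rose and 1 fell: NES rose, with 9.74 to 9.94 in the quiet media and 11.15 to 11.59 in the others (limma adjusted p = 3.02e-07), TUBB3 and MAP2 rose by 0.59 and 0.99 (limma adjusted p = 0.00037 and 0.0399), and RTN1 fell. The call for MAP2 was lost without LPA + Albumin, LPA or Albumin (adjusted p = 0.172, 0.143 and 0.102). OTX2, also measured, overlapped between the sets. PAX6, OTX1, LHX2, LHX5 and HES5 had a named probe but were above background on no array. Over the 5 neuroectoderm genes measured of 20 listed, the summed linear signal was 4285 to 4951 in the quiet media. It was 7490 to 8736 in the LPA-like media, and its part in the other results was not tested.

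The receptors for LPA did not follow the sets closely. LPAR1 read 6.74 to 7.20 in the quiet media and 6.79 to 6.98 in the others, and LPAR2 read 7.71 to 7.93 and 7.28 to 8.11. LPAR3 fell in the limma test by 0.41 (adjusted p = 0.0488), with 7.23, 7.20, 7.27 and 7.17 in the quiet media, 6.89 in LPA and 6.72 in LPA + Albumin, but AlbuMAX, at 7.26, lay within the quiet range. LPAR4 lay below the quiet range, at 7.35, 7.84 and 7.24 against 7.85 to 8.08, and did not pass the test (adjusted p = 0.105). The call for LPAR3 is marginal and was lost under each left-out array (adjusted p from 0.0552 to 0.298) and each other scaling. LPAR6 was above background on 1 of 7 arrays. GNA12, the alpha subunit of G12, read 8.04, 7.94, 8.01 and 8.12 against 8.31, 8.49 and 8.62 and rose (limma adjusted p = 0.00361), a call lost when the gene's probes were averaged (adjusted p = 0.28) or LPA + Albumin was left out (adjusted p = 0.062).

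The 3 LPA-like media kept a common order on most of the higher genes. LPA + Albumin lay farthest from the quiet media on 160 of the 184, and LPA alone lay nearest to them on 160; 140 followed the order LPA, AlbuMAX, LPA + Albumin. The median difference from the quiet mean was 1.18 in LPA, 1.48 in AlbuMAX and 1.80 in LPA + Albumin. Among the 169 lower genes the order was looser, with LPA + Albumin farthest on 95, AlbuMAX on 54 and LPA on 20. On the 184 higher genes the median range was 0.42 over the quiet media and 0.70 over the LPA-like media, and the median gap between the sets was 0.92, as their choice requires a gap. On the 169 lower genes the ranges were 0.32 and 0.37 and the gap 0.38.

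AlbuMAX, whose label names no LPA, sided with the LPA media. On 85 genes both LPA arrays lay at least 2-fold above every quiet array. AlbuMAX lay above the quiet range on all 85 and at least 2-fold above it on 78, between the LPA arrays on 66, above both on 7 and below both on 12. No gene put both LPA arrays 2-fold beyond all quiet arrays while AlbuMAX stayed in or short of the quiet range. These comparisons share the quiet arrays. Without a shared array, LPA minus E8 and AlbuMAX minus Albumin had a Pearson correlation of 0.619 and a Spearman correlation of 0.455 across 7982 genes, which are not independent replicates and share the normalization. Of 150 genes at least 2-fold higher in the first difference, 105 (70%) were so in the second, where they were 46.1% of 228. For genes at least 2-fold lower, 7 were shared, 15.6% of 45 and 9.33% of 75.

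AlbuMAX also differed from the other LPA-like media, on genes of lipid synthesis among others. Only 4 genes lay at least 2-fold above all 6 other arrays in AlbuMAX, and none 2-fold below: LEFTY2, FOXR1, APOBEC3F and SLC9B2. FOXR1 and SLC9B2 were above background in AlbuMAX only. Of 13 measured cholesterol synthesis genes the median difference from the quiet mean was -0.47 in AlbuMAX, -0.09 in LPA and -0.02 in LPA + Albumin. INSIG1, a sterol-responsive regulator of this pathway, read 10.67, 10.65, 10.58 and 10.64 in the quiet media, 9.40 in AlbuMAX, 10.11 in LPA and 10.24 in LPA + Albumin, and fell with added LPA (limma adjusted p = 0.0008). HMGCS1, which makes the precursor of mevalonate, read 12.73 to 12.99 in the quiet media, 12.07 in AlbuMAX, 12.61 in LPA and 12.72 in LPA + Albumin. SCD, the stearoyl-CoA desaturase, read 13.31 to 13.33 in the quiet media, 12.87 in AlbuMAX, 13.40 in LPA and 13.36 in LPA + Albumin. Over 8 fatty acid synthesis genes the medians were -0.49, 0.04 and 0.01 in AlbuMAX, LPA and LPA + Albumin. On SCD both LPA arrays lay above every quiet array and AlbuMAX below them.

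Some genes split the media by albumin and not by these sets. MT1G, a zinc-binding metallothionein, read 11.37 in E8, 11.29 in CDL, 11.44 in hCDL and 11.51 in LPA, against 9.54 in Albumin, 8.62 in AlbuMAX and 8.17 in LPA + Albumin. MT1X followed the same division, with 9.95 to 10.36 in the media without albumin and 8.29 to 9.15 in those with it. TXNIP, an arrestin-family protein that responds to glucose, was higher in Albumin (8.91), AlbuMAX (9.47) and LPA + Albumin (9.21) than in LPA (7.97), E8 (7.23), hCDL (6.80) and CDL (6.11). All 3 genes overlapped between the LPA-like and the quiet media.

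**Figure D5:**
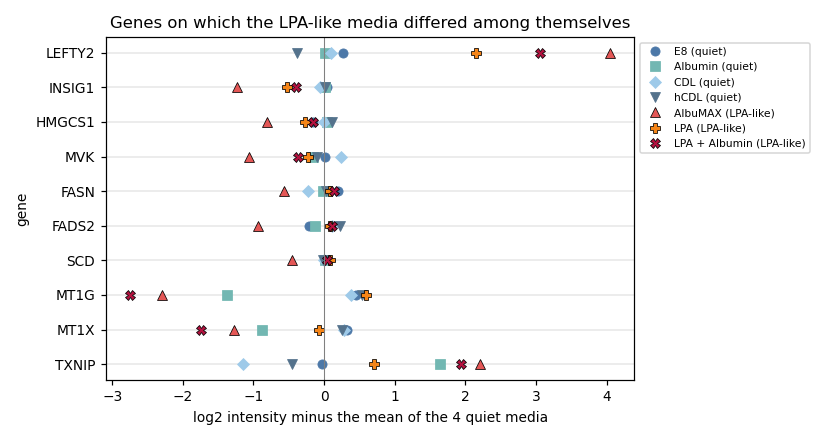
The 10 genes shown are some on which the LPA-like media differed among themselves, each array as the log2 intensity minus the mean of the 4 quiet media (horizontal axis). AlbuMAX lies lowest on INSIG1, HMGCS1, MVK, FASN, FADS2 and SCD, and the 3 albumin-containing media lie together on MT1G, MT1X and TXNIP.

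The genes at the edge of the 2-fold limit show how close a call can be. GRHL3 and MAMDC2, at 1.01 and 1.03, were just inside for the higher genes, and SEMA3C and CAPRIN2, at 0.999 and 0.99, just outside. For the lower genes BTBD17 and GUCY1B1, at -1.004 and -1.01, were just inside, and SCAPER and FABP7, at -0.999 and -0.96, just outside. The size of the lower set also turned on the background correction: without it, 83 genes were higher and none lower by 2-fold.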

How the data were processed

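The deposited table of 7 Illumina bead arrays holds, per the file headers, a non-normalized intensity and a detection p-value for each of 33866 probes. A second deposited table of processed intensity values matched the first array by array. Its values were linear, quantile normalized and without background subtraction (column medians 112.4 to 112.5), and served as an alternative. No source used here names the software behind either table.

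Intensities were corrected by normexp with inferred negative controls (offset 16) and quantile normalized with limma 3.58.1 in R 4.3.3, then put on the log2 scale. Probes with a detection p-value under 0.01 on at least 1 array were kept (14796), and named through the supplied platform annotation (19221 probes with 1 symbol, 3 with several, 14642 unnamed here); the brightest probe stood for each of 7982 genes. "At least N-fold" sets the brighter mean against the lowest signal above background on each dim array, or the gene's own where higher. Array number limits the precision.

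The LPA test used limma (eBayes with trend) on 6 arrays with 4 residual degrees of freedom, with Benjamini-Hochberg adjustment called at 0.05. A gene lay apart where all arrays of one set exceeded all of the other. Named genes were the 15 widest gaps in each direction, up to 4 members per list, genes on which AlbuMAX and the LPA media parted, genes at the 2-fold limit, the LPA receptors, and the smallest p-values, some left out for length; other list members are examples chosen after their values were seen, as were GSN's place beside its list and MT1G, MT1X, TXNIP, SCD, HMGCS1, FOS, MYC, NODAL, HHEX and ACTG1. The 43 lists, the members and the sets were chosen with earlier results of these data known.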

Additional observations from a re-analysis of the deposited data

Results flagged for a closer look

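Among the 4 quiet media, 1 array stood far from the other 3 on 11 of 115 named genes. The rule flags about 1 in 20 groups by chance, but the count cannot be set against this rate. All the genes share the same 4 arrays, and some, MT1G and MT1X among them, were named after their values were seen. CDL was the array apart on 7 of the 11. It was above the others on BAX (9.16 against 8.68 to 8.73), CCNB1 (10.84 against 10.79), LEFTY1 (9.80 against 9.27 to 9.35) and LPAR6 (5.21 against 4.60 to 4.67). It was below the others on APOBEC3F (5.19 against 5.75 to 5.81), FHL2 (10.39 against 10.54 to 10.56) and MYH9 (11.92 against 12.10 to 12.14). Albumin was above the others on FABP7 (6.85 against 6.16 to 6.25) and below them on MT1G (9.54 against 11.29 to 11.44) and MT1X (9.15 against 10.28 to 10.36). hCDL was above the others on CER1 (5.35 against 4.54 to 4.56), where it was the 1 quiet array above background.

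Probes that carry no single gene name here also lay apart. Of the 4309 such probes that passed the background filter, 23 (0.534%) were higher in the LPA-like media without overlap and with means 2-fold apart, and 1 was lower.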

How the results depend on the processing

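The count of genes apart turned on the background correction. An offset of 50 gave 119 higher and 7 lower, no background correction 83 and 0, and the submitters' processed values 82 and 0, so that 100% of the calls were higher under the last 2 settings, against 89.8% in the reported values. Genes above background on all 7 arrays held 108 higher and 12 lower. Means 1.5-fold apart gave 401 and 169, with 70.4% higher. Leaving out 1 array moved the counts from 157 to 232 higher and from 18 to 40 lower; the 40 came without LPA. Of the 184 higher genes, 184 remained with loess, 180 with median centring and 156 without LPA + Albumin.

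For the limma test, leaving out 1 array gave 308 to 775 genes that rose and 147 to 700 that fell. Without LPA + Albumin the counts were 308 and 147, without hCDL 329 fell and without Albumin 392 fell; where an LPA array is left out, the remaining one is assumed to vary like the quiet media. No intensity trend gave 472 and 273, and an additive model of the supplements 530 and 345. Loess gave 817 and 409, 66.6% of calls upward against 55%. When AlbuMAX was counted with the media without LPA, 0 genes rose and 0 fell in limma (1327 at an unadjusted p under 0.05). Raising dim values to the background, chosen after seeing the data, gave 166 and 15 apart. No setting turned the direction of a tested gene's coefficient printed here or of a gene's non-overlapping difference. Without LPA + Albumin, IGFBP4 and CCNB1 lost their calls (adjusted p = 0.055 and 0.148), and CCNB1 also without the trend (0.0694); without LPA, NANOG and LPAR4 passed (0.0237 and 0.00668). No paired analysis was possible because no label gives replicate numbers that pair the arrays; the additive model matches LPA to E8 and LPA + Albumin to Albumin.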
